A study of Mus musculus with 6 samples.

Results

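The cell cycle genes described here were 42 genes known for driving or restraining the division of precursor cells: 10 of DNA replication, 16 of mitosis, 13 cyclins, kinases and the factor E2f1, and 3 inhibitors. They were chosen by gene symbol, and all 42 were found among the 24411 genes with a value in every library. RNA bound to HA-tagged ribosomes was sequenced from whole mouse brain by RiboTag, in which Cre recombinase puts an HA tag on the ribosomal protein Rpl22, and the tagged ribosomes are pulled down with their RNA (IP). The icKO mice were NG2CreERTM;Ank3F/F;Rpl22HA/+ and lose Ank3, which encodes the scaffold protein ankyrin-G (AnkG), in recombined cells, while the control mice were NG2CreERTM;Rpl22HA/+. Both genotypes received tamoxifen (100 mg/kg per day for 5 days) at 8 weeks of age and were analysed 1 month later. Each library came from 3 pooled brains, and the groups were icKO IP (2 libraries), control IP (2), icKO input (1) and control input (1), the input being homogenate RNA before the pull-down. The labels name the cells oligodendrocytes, but the NG2 driver is active in oligodendrocyte precursors and in pericytes, the contractile cells of small vessels, so that both, and cells born from labelled precursors before sampling, can carry the tag.

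Dividing cells copy DNA in S phase and separate it in mitosis. D-type cyclins with Cdk4 or Cdk6 relieve the block on E2F factors, which then turn on replication genes such as the Mcm2 to Mcm7 helicase subunits. Cyclin E and cyclin A with Cdk2 carry the cell through S phase, cyclin B with Cdk1 starts mitosis, and the inhibitors p21 (Cdkn1a), p27 (Cdkn1b) and p57 (Cdkn1c) hold these kinases back. Oligodendrocyte precursors are the main cells that still divide across the adult brain outside its germinal zones, and p27 is known to build up as they leave the cycle.

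Mitotic genes are known to carry CCAAT boxes and a cell cycle homology region (CHR) near their start sites, and replication genes to carry E2F motifs. The promoters of 7 members are shown as examples. Of these, Cdc20, Cenpf, Prc1 and Ccnb1 were higher in the icKO IPs, and Pcna and Cdkn1b were lower. Mcm6, a replication gene, did not pass the test. Whether promoter letters bear on the changes between genotypes was not tested. Each runs 5′ to 3′ on the gene's strand from 150 bases before the RefSeq start site to 20 after it (build GRCm38.p6), and capitals mark the letters searched for on both strands.
Cdc20: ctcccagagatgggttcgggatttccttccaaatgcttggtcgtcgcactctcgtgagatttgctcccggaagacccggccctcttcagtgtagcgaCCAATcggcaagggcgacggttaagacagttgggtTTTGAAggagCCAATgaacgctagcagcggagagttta
Cenpf: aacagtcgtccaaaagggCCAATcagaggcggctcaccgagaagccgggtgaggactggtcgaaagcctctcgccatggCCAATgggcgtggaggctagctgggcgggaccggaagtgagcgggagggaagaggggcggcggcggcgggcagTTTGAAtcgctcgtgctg
Prc1: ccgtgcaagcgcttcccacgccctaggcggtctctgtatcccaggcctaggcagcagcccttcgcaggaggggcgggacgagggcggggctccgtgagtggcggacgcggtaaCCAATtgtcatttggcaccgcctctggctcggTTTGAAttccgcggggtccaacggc
Ccnb1: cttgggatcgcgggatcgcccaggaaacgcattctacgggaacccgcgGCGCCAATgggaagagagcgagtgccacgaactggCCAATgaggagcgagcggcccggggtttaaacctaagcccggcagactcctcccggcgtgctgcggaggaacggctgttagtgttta
Mcm6: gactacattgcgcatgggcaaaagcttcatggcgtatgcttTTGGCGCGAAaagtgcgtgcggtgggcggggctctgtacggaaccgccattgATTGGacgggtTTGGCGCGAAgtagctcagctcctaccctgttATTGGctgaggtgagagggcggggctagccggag
Pcna: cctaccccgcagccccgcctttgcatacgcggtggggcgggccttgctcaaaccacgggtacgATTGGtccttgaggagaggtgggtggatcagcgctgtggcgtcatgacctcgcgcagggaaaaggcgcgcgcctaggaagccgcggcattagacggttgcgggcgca
Cdkn1b: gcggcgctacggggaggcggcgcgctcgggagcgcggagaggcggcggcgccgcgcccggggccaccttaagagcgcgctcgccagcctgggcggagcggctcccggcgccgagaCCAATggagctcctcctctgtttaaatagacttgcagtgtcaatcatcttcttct
Their places are Cdc20 at chr4:118437324-118437493 (minus strand), Cenpf at chr1:189688067-189688236 (minus strand), Prc1 at chr7:80294301-80294470 (plus strand), Ccnb1 at chr13:100786467-100786636 (minus strand), Mcm6 at chr1:128359686-128359855 (minus strand), Pcna at chr2:132253161-132253330 (minus strand) and Cdkn1b at chr6:134920251-134920420 (plus strand).
The CCAAT box was searched by those letters. The CHR was searched as TTTGAA and in the variant form TTCGAA. The E2F core was searched as TTCCCGC and in 3 further forms, which were TTCGCGC first, followed by TTGCCGC next, and followed by TTGGCGC last, and it can overlap a CCAAT box, as it does in Ccnb1. Windows of 300 bases (250 before to 50 after the start) were in the table for 34 of the 42 members. CHR letters stood in 11 of 14 mitosis promoters (78.6%) and in 2 of 9 replication promoters (22.2%), against 21.7% of all 27025 genes with a promoter. E2F letters stood in 1 of 14 mitosis promoters (7.1%) and 6 of 9 replication promoters (66.7%), against 10.9% of all genes. CCAAT letters stood in 12 of 14 mitosis promoters (85.7%) and 8 of 9 replication promoters (88.9%), against 41.1% of all genes. These are matches of letters and not measured binding sites.

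Library totals ran from 18968806 to 23930812 counts, so that 3 counts amounted to 0.124 to 0.166 CPM. Levels below are in CPM, the count of a gene scaled to the size of its library, with TMM factors that also adjust for the make-up of each library. Ank3 had 1163 and 1167 CPM in the icKO IPs, against 1389 and 1359 CPM in the control IPs. Which exons are deleted is not stated, and a count over the whole gene is a weak check of the deletion. The 26 precursor markers summed to 11402 and 11484 CPM in the icKO IPs, against 12911 and 13032 CPM in the control IPs, and to 1602 and 1490 CPM in the icKO and control inputs. The labelled oligodendrocyte identity had its markers (25 mature markers summing to 18316 to 29637 CPM per IP), and pericyte markers were present too (14 markers, 1216 to 2218 CPM per IP). The titles name the IP libraries of each genotype as biol rep 1 and 2, biological replicates, without saying which mice went into each pool. The p-values between the IP groups rest on how far these 2 libraries per group differed over all genes. The spread of a single gene had little weight (2 residual against 29.7 prior degrees of freedom).

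None of the 42 members was at 0 in any library, and all passed the filter on low counts in the comparisons tested. Their raw counts in single IP libraries ran from 22 to 6717. Levels per kilobase of exon, averaged over the 4 IPs, were highest for Ccnd1, the cyclin D1 gene, at 56.5 CPM per kb. Cdk4, its kinase partner, followed at 14.3 CPM per kb, then Pcna, the clamp that holds the DNA polymerase, at 13.5 CPM per kb, Cdkn1b at 10.6 CPM per kb and the helicase subunit gene Mcm4 at 9.45 CPM per kb. The lowest levels per kilobase in the IPs were those of Cdk6 (0.340 CPM per kb), the checkpoint kinase gene Bub1 (0.396 CPM per kb) and Cdk1 (0.472 CPM per kb). In the inputs the order was another: Pcna (9.54 CPM per kb), Ccnd2 (8.25 CPM per kb), Ccne1 (7.84 CPM per kb), Cdkn1b (7.43 CPM per kb) and Ccnd1 (7.13 CPM per kb) led.

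**Figure D1:**
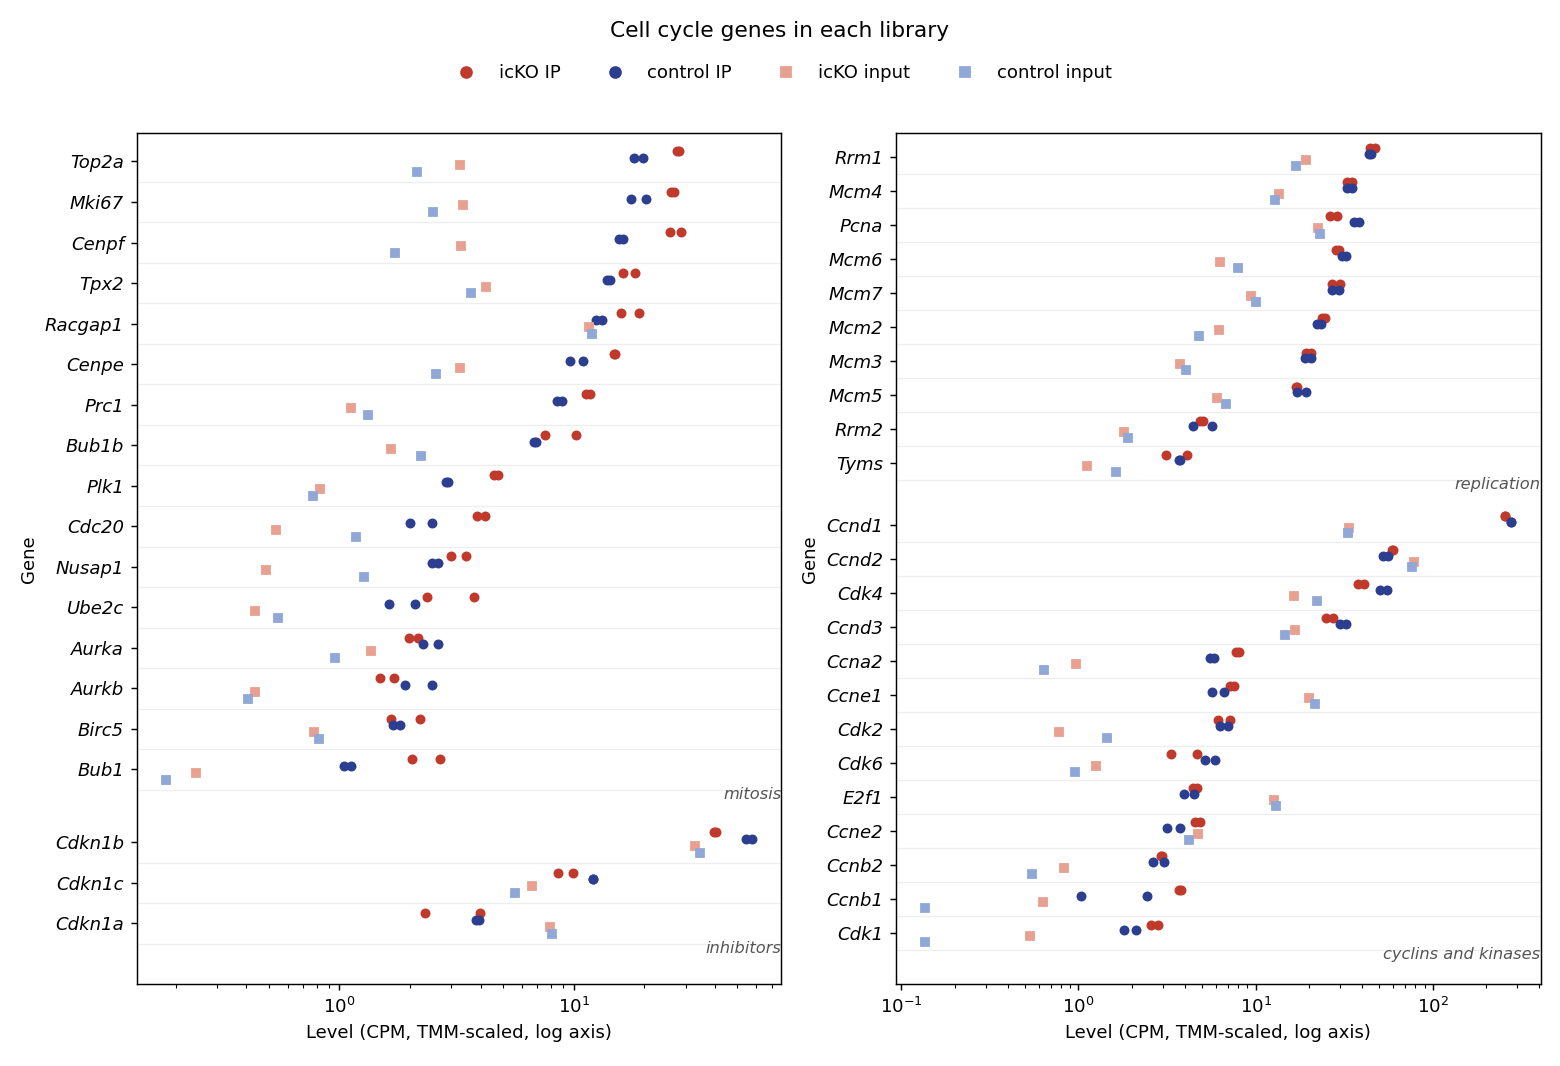
Levels of the 42 members in each of the 6 libraries (CPM on a log axis), grouped by role, with 1 point per library. The IP points of most mitosis genes lie above the input points, while Ccnd2, Ccne1, E2f1 and Cdkn1a lie lower in IP than in input.

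The first comparison asked which cell cycle transcripts stood above whole brain RNA in the pull-down. In IP over input, with genotype as a term, 36 of the 42 members were higher and 4 lower (edgeR quasi-likelihood test, Benjamini-Hochberg adjusted p under 0.05). Among all 15936 genes tested, 34.2% were higher and 34.2% lower. All 10 replication genes were higher (median log2 difference 1.44), as were 15 of 16 mitosis genes (median 2.12), 9 of 13 cyclins, kinases and E2f1 (median 2.08) and 2 of 3 inhibitors (median 0.49), against a median of 0.02 over all genes tested. A bulk measurement cannot tell fewer or more cells of a type from less or more of the RNA per cell. For comparison, 25 of the 26 precursor markers and 14 of 14 pericyte markers were higher in IP, while 12 of 12 astrocyte and 12 of 12 neuron markers were lower.

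Genes of chromosome handling in mitosis stood well above input. Top2a, the topoisomerase that untangles DNA, had 27.5 and 28.0 CPM in the icKO IPs and 18.0 and 19.8 CPM in the control IPs, against 3.26 CPM in the icKO input and 2.13 CPM in the control input. Its level was 8.66-fold higher in IP (log2 3.11, SE 0.13, edgeR adjusted p = 2.63e-08), the largest difference of the mitosis group. Cenpf, a kinetochore protein gene, was 8.63-fold higher, and Mki67, the gene of the proliferation antigen Ki-67, 7.71-fold higher. The smallest passing difference of the group was that of Aurka, a spindle pole kinase gene (log2 0.97, SE 0.30, edgeR adjusted p = 0.016), and this call was lost in icKO IP against icKO input alone (log2 0.60, adjusted p = 0.196). Racgap1, which acts in cytokinesis, was the member of the group that did not pass: it had 18.97 and 16.0 CPM in the icKO IPs and 13.2 and 12.4 CPM in the control IPs, against 11.7 CPM in the icKO input and 12.0 CPM in the control input (log2 0.33, SE 0.14, edgeR adjusted p = 0.057). Within the icKO libraries alone Racgap1 did pass (log2 0.58, edgeR adjusted p = 0.00096). Within either genotype 36 members were higher in IP and 4 lower, where 34.7% of genes were higher and 34.8% lower in the icKO libraries, and 34.4% higher and 33.9% lower in the control libraries.

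Replication genes were all higher in IP, with a lower median than the mitosis genes. Mcm3, a helicase subunit gene, had the largest difference of the group at 5.09-fold (log2 2.35, SE 0.13, edgeR adjusted p = 1.32e-07), with 20.6 and 19.3 CPM in the icKO IPs and 19.04 and 20.5 CPM in the control IPs, against 3.74 and 4.04 CPM in the icKO and control inputs. Mcm2 was 4.29-fold higher and Mcm5 2.73-fold higher. Pcna had the smallest difference of the group, 1.40-fold (log2 0.49, SE 0.11, edgeR adjusted p = 0.00254), and it had the highest input level per kilobase of the 42, with 22.6 CPM in the icKO input and 23.3 CPM in the control input.

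Cyclins were found on both sides of input, also within a type. Ccna2 was 8.42-fold higher in IP, Ccnb1 7.29-fold, Ccnb2 4.22-fold, Ccnd3 1.82-fold and Ccnd1 7.92-fold (log2 2.99, SE 0.08, edgeR adjusted p = 2.61e-09), with 255 and 256 CPM in the icKO IPs and 276 and 278 CPM in the control IPs, against 33.8 and 33.3 CPM in the icKO and control inputs. Ccnd2, the cyclin D2 gene, went the other way: 59.7 and 59.3 CPM in the icKO IPs and 52.3 and 55.8 CPM in the control IPs, against 78.3 and 76.9 CPM in the icKO and control inputs (1.37-fold lower in IP, log2 -0.45, SE 0.07, edgeR adjusted p = 0.000266). Ccne1, the cyclin E1 gene, was the furthest below input, 3.10-fold (log2 -1.63, SE 0.13, edgeR adjusted p = 1.68e-06), with 20.0 and 21.8 CPM in the icKO and control inputs. E2f1 was 2.93-fold lower in IP, while Ccne2, the cyclin E2 gene, did not pass (log2 -0.15, edgeR adjusted p = 0.492). Among the inhibitors, Cdkn1a was 2.27-fold lower in IP (log2 -1.19, SE 0.20, edgeR adjusted p = 0.000438), while Cdkn1b was 1.40-fold and Cdkn1c 1.72-fold higher. The lower calls of Ccnd2, Ccne1, E2f1 and Cdkn1a were also made under each of 14 other settings.

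**Figure D2:**
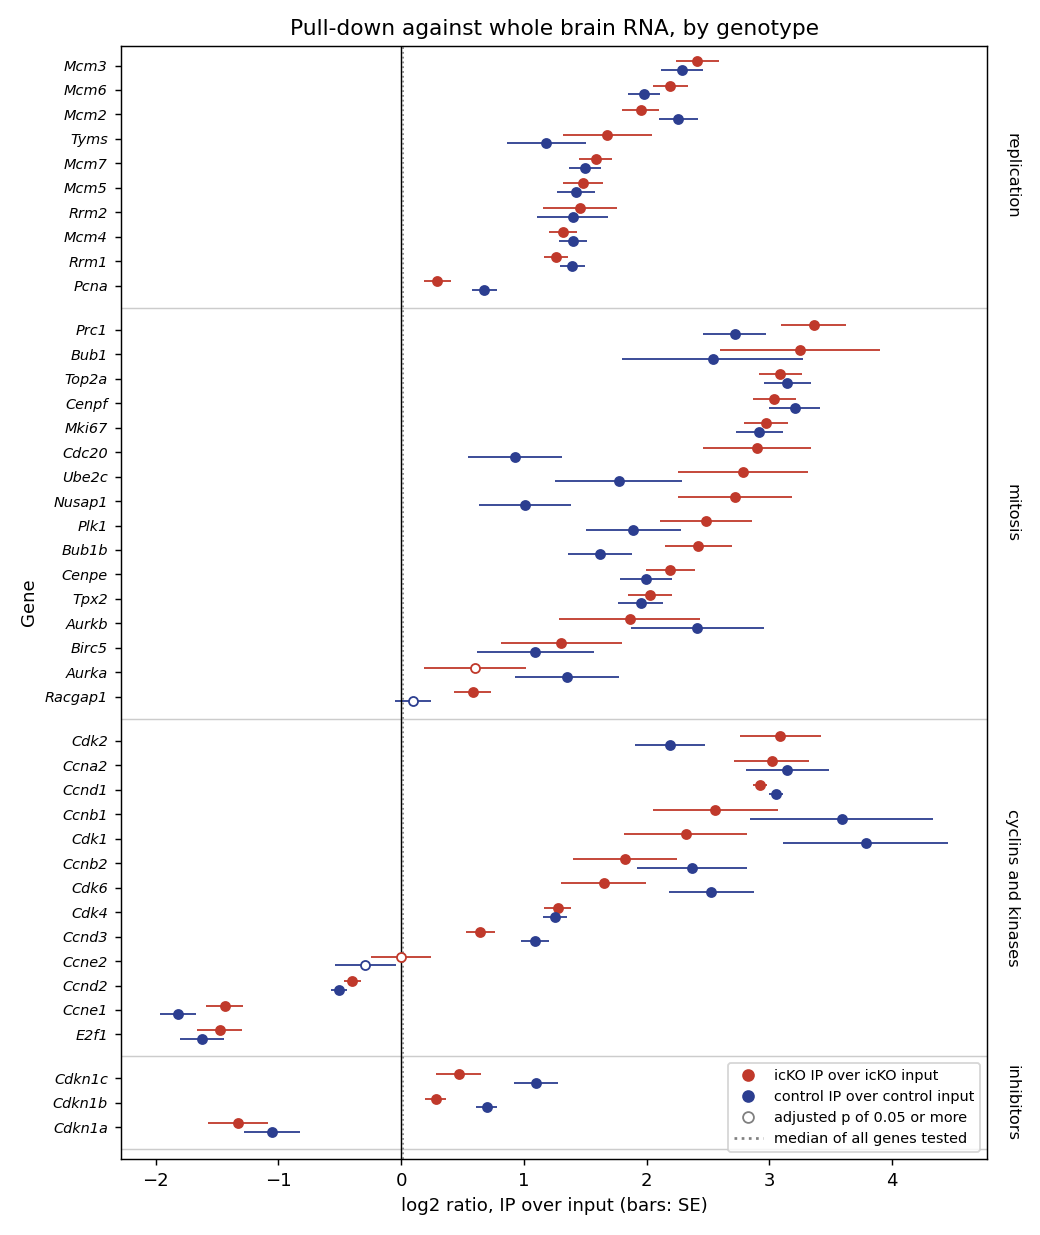
Log2 ratio of IP over input for each of the 42 members within each genotype (icKO red, control blue; bars, SE; open points, adjusted p of 0.05 or more), grouped by role, with a dotted line at the median of all genes. Ccnd2, Ccne1, E2f1 and Cdkn1a lie below 0 in both genotypes, and the genotypes lie furthest apart in opposite directions for Cdc20 (2.90 in icKO and 0.93 in control) and Cdk1 or Ccnb1, whose control input had 3 counts.

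The second comparison, the one the study was set up for, was icKO IP over control IP. Mitosis genes were higher in the icKO IPs: 12 of 16 rose and none fell (median log2 change 0.47), whereas 0 of 10 replication genes rose and 1 fell (median -0.01). Among cyclins, kinases and E2f1, 2 of 13 rose and 3 fell (median 0.10), and among the 3 inhibitors none rose and 2 fell (median -0.38). Over the 42 members that made 14 higher and 6 lower (edgeR quasi-likelihood test, adjusted p under 0.05). These shares need reading against all 15069 genes tested, of which 22.1% were higher and 25.2% lower, with a median of 0.003. Without 1 library in turn, the median log2 change of the mitosis genes ran from 0.39 to 0.51, against -0.003 to 0.008 over all genes tested. Fewer mitosis genes, and fewer of all genes tested, then passed as higher than with all IP libraries. With DESeq2 7 mitosis genes and 8 members in all rose and 4 fell, where 15.7% of all genes were higher and 18.3% lower. With library totals in place of TMM 9 mitosis genes rose, where 16% of all genes were higher and 33% lower, and with a minimum of 5 CPM all 8 mitosis genes that remained rose, where 28.6% were higher and 29% lower.

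The smallest adjusted p among the rises were those of kinetochore and chromosome genes. Cenpf had 28.8 and 25.7 CPM in the icKO IPs, against 16.3 and 15.7 CPM in the control IPs. Both icKO libraries lay above both control libraries, with means of 27.2 ± 2.18 and 16.0 ± 0.428 CPM (SD, n = 2 each) and a change of 1.71-fold (log2 0.78, SE 0.10, edgeR adjusted p = 5.56e-08). Top2a averaged 27.8 ± 0.37 CPM in the icKO IPs and 18.9 ± 1.246 CPM in the control IPs (SD, n = 2 each), a 1.47-fold rise (log2 0.55, SE 0.09, edgeR adjusted p = 7.72e-06). Mki67 had 26.7 and 26.0 CPM in the icKO IPs, against 20.4 and 17.5 CPM in the control IPs (1.40-fold, log2 0.48, SE 0.10, edgeR adjusted p = 9.65e-05). Cenpe, the gene of a kinetochore motor, had 14.8 and 15.0 CPM in the icKO IPs, against 9.64 and 10.998 CPM in the control IPs (1.44-fold, edgeR adjusted p = 0.000578). The groups did not overlap for any of these 4 genes.

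Further mitosis genes rose at lower counts. Plk1, a kinase of mitotic entry, had 4.56 and 4.75 CPM in the icKO IPs, against 2.91 and 2.85 CPM in the control IPs (1.62-fold, log2 0.69, SE 0.22, edgeR adjusted p = 0.00934). Cdc20, the activator of the ligase that ends mitosis, had 4.18 and 3.87 CPM in the icKO IPs, against 2.005 and 2.48 CPM in the control IPs (1.79-fold, log2 0.84, SE 0.25, edgeR adjusted p = 0.00566). The largest change of the group was that of Bub1, with 2.68 and 2.04 CPM in the icKO IPs, against 1.05 and 1.12 CPM in the control IPs (2.18-fold, log2 1.12, SE 0.34, edgeR adjusted p = 0.0073). Racgap1 also rose, 1.37-fold (edgeR adjusted p = 0.00158). The calls of Top2a, Mki67, Plk1, Cenpe, Cenpf and Cdc20 held without any single library, although that of Plk1 was lost with DESeq2 (adjusted p = 0.0644), and those of the other 6 mitosis genes each depended on 1 or more libraries. Without icKO IP replicate 1 the calls of Bub1 (adjusted p = 0.126), Racgap1 (0.0651), Prc1 (0.0667) and Bub1b (log2 0.15, adjusted p = 0.599) were lost. Without control IP replicate 2 those of Bub1b (0.119), Tpx2 (0.113) and Prc1 (0.0657) were lost. Ube2c, Tpx2 and Bub1b, with adjusted p of 0.0468, 0.0263 and 0.0494, were near the threshold: Ube2c lost its call without control IP replicate 1 (0.205) or icKO IP replicate 2 (log2 0.33, adjusted p = 0.53), Tpx2 without icKO IP replicate 2 (0.231) and Bub1b without control IP replicate 1 (0.0781). With DESeq2 the calls of Bub1b (0.186), Tpx2 (0.117), Ube2c (0.165) and Prc1 (0.074) were lost too.

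Not every mitosis gene took part. Aurkb, the kinase of the chromosomal passenger complex, had 1.72 and 1.49 CPM in the icKO IPs, against 1.91 and 2.48 CPM in the control IPs, lower in both icKO libraries without passing the test (log2 -0.45, SE 0.32, edgeR adjusted p = 0.247). Birc5, the survivin subunit of the same complex, had 2.20 and 1.66 CPM in the icKO IPs, against 1.81 and 1.70 CPM in the control IPs, and the groups overlapped (log2 0.14, SE 0.32, edgeR adjusted p = 0.742). Aurka (log2 -0.24, adjusted p = 0.524) and Nusap1, which binds spindle microtubules (log2 0.34, adjusted p = 0.288), did not pass either. Nusap1 had 3.48 and 2.98 CPM in the icKO IPs, against 2.48 and 2.65 CPM in the control IPs, with no overlap. Of the 16 mitosis genes, 13 had both icKO IPs above both control IPs, 2 had both below and 1 overlapped. Over all genes tested, 35.2% lay above without overlap and 36.9% below.

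**Figure D3:**
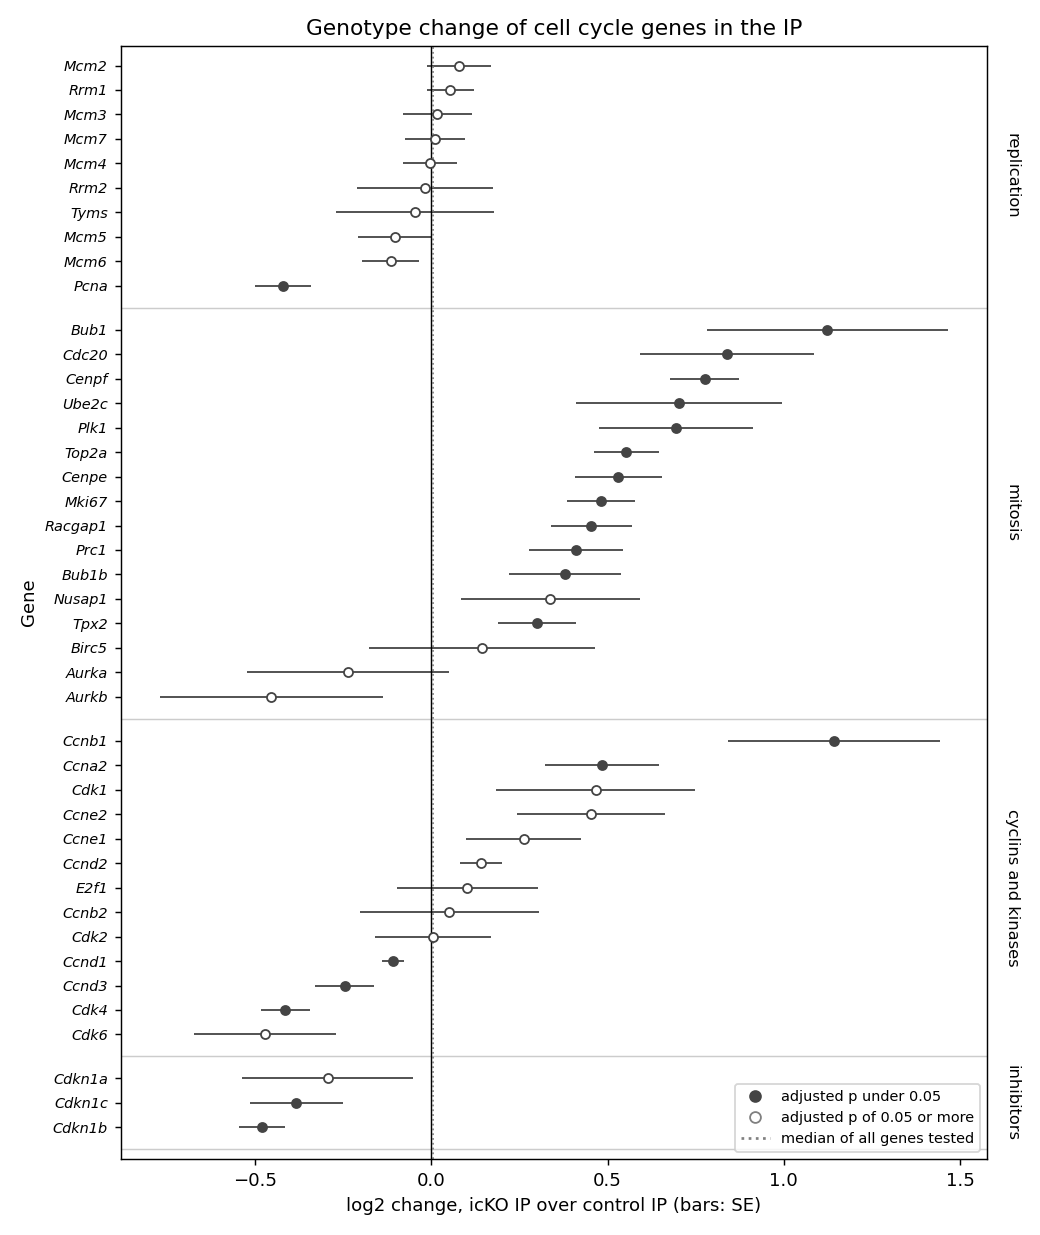
Log2 change of icKO IP over control IP for each member with its standard error, grouped by role (edgeR, 4 IP libraries; filled points passed the test). The mitosis genes that passed lie between 0.30 and 1.12, and the members that fell lie between -0.48 and -0.11.

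Replication genes differed little between the genotypes except for Pcna. Pcna had 28.9 and 26.4 CPM in the icKO IPs, against 38.4 and 36.0 CPM in the control IPs. It fell to 0.747 of the control level (log2 -0.42, SE 0.08, edgeR adjusted p = 4.48e-05), with means of 27.7 ± 1.83 CPM in the icKO IPs and 37.2 ± 1.70 CPM in the control IPs (SD, n = 2 each). The largest value in the other direction was that of Mcm2, with 23.6 and 24.5 CPM in the icKO IPs, against 23.5 and 22.2 CPM in the control IPs (log2 0.08, edgeR adjusted p = 0.496). Mcm5 had 17.1 and 16.9 CPM in the icKO IPs, against 17.1 and 19.3 CPM in the control IPs (log2 -0.10, adjusted p = 0.444). Mcm6 did not pass either (log2 -0.12, edgeR adjusted p = 0.243). It passed as lower with library totals (log2 -0.20, edgeR adjusted p = 0.0358), where 33% of all genes were lower. Rrm2, a subunit of the enzyme that makes deoxynucleotides, had 4.88 and 5.03 CPM in the icKO IPs, against 5.68 and 4.42 CPM in the control IPs, and the groups overlapped (log2 -0.02, adjusted p = 0.95). Tyms, which makes thymidylate, also overlapped, with 3.11 and 4.09 CPM in the icKO IPs, against 3.68 and 3.76 CPM in the control IPs (log2 -0.05, adjusted p = 0.886). Summed over the 10 genes, replication transcripts came to 237 and 231 CPM in the icKO IPs, against 244 and 245 CPM in the control IPs. The 16 mitosis genes together came to 178 and 170 CPM in the icKO IPs, against 124 and 123 CPM in the control IPs.

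Among the cyclins, Ccnb1 and Ccna2 rose, Ccnd1 and Ccnd3 fell, and the others did not pass. Ccnb1, the cyclin B1 gene, had 3.81 and 3.70 CPM in the icKO IPs, against 2.43 and 1.03 CPM in the control IPs (2.21-fold, log2 1.14, SE 0.30, edgeR adjusted p = 0.00216). Its size rested on control IP replicate 2, the lowest library: without it the change was log2 0.62 with an adjusted p of 0.0994, and without control IP replicate 1 it was log2 1.86. Ccna2, the cyclin A2 gene, had 8.09 and 7.74 CPM in the icKO IPs, against 5.82 and 5.54 CPM in the control IPs (1.40-fold, log2 0.48, SE 0.16, edgeR adjusted p = 0.014), a call lost without control IP replicate 2 (0.0689) or icKO IP replicate 1 (0.0732) or with DESeq2 (0.0871). Ccnb2 did not pass (log2 0.05, adjusted p = 0.888).

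Ccnd1 fell slightly, to 0.927 of the control level (log2 -0.11, SE 0.03, edgeR adjusted p = 0.00394), with means of 256 ± 0.423 CPM in the icKO IPs and 277 ± 1.503 CPM in the control IPs (SD, n = 2 each). Ccnd3 had 24.9 and 27.5 CPM in the icKO IPs, against 32.4 and 30.0 CPM in the control IPs (log2 -0.25, SE 0.08, edgeR adjusted p = 0.0163), and this call was lost without control IP replicate 1 (0.136) or icKO IP replicate 1 (0.157) or with DESeq2 (0.0963). Ccnd2, higher in both icKO IPs, missed the threshold (log2 0.14, SE 0.06, adjusted p = 0.0529). Ccne1 had 7.18 and 7.57 CPM in the icKO IPs, against 5.68 and 6.62 CPM in the control IPs, and did not pass (log2 0.26, adjusted p = 0.193), nor did Ccne2 (log2 0.45, adjusted p = 0.0766).

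Of the kinases, Cdk4 fell and the others did not pass. Cdk4 had 41.2 and 38.1 CPM in the icKO IPs, against 55.6 and 50.5 CPM in the control IPs, with no overlap (0.751 of the control level, log2 -0.41, SE 0.07, edgeR adjusted p = 7.26e-06). Cdk6, the related kinase, had the lowest fitted value of its role, with 3.32 and 4.64 CPM in the icKO IPs, against 5.92 and 5.17 CPM in the control IPs (log2 -0.47, SE 0.20, edgeR adjusted p = 0.0538). Cdk1 had 2.57 and 2.82 CPM in the icKO IPs, against 2.10 and 1.82 CPM in the control IPs (log2 0.47, SE 0.28, adjusted p = 0.18). Both Cdk6 and Cdk1 kept their groups apart without passing. With library totals Cdk6 did pass as lower (log2 -0.56, edgeR adjusted p = 0.0222), where 33% of all genes were lower, but not with DESeq2 (adjusted p = 0.207). Cdk2 overlapped, with 7.18 and 6.13 CPM in the icKO IPs, against 6.30 and 6.99 CPM in the control IPs, and E2f1 overlapped too, with 4.45 and 4.64 CPM in the icKO IPs, against 3.96 and 4.51 CPM in the control IPs (log2 0.10, adjusted p = 0.705).

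The inhibitor p27 had the smallest adjusted p among the members that fell. Cdkn1b had 40.5 and 39.7 CPM in the icKO IPs, against 54.4 and 57.7 CPM in the control IPs. Its means were 40.1 ± 0.517 CPM in the icKO IPs and 56.0 ± 2.31 CPM in the control IPs (SD, n = 2 each), a fall to 0.717 of the control level (log2 -0.48, SE 0.06, edgeR adjusted p = 2.16e-07). The call held without any single library. Cdkn1c, the p57 gene, had 8.58 and 9.89 CPM in the icKO IPs, against 12.0 and 12.1 CPM in the control IPs (log2 -0.38, SE 0.13, edgeR adjusted p = 0.0168), and lost its call without control IP replicate 2 (0.0502) or icKO IP replicate 1 (0.159) or with DESeq2 (0.104). Cdkn1a had 3.97 and 2.32 CPM in the icKO IPs, against 3.82 and 3.93 CPM in the control IPs, and the icKO libraries fell on both sides of the control libraries (log2 -0.29, SE 0.24, adjusted p = 0.333).

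Opposite-strand neighbours share exon sequence with some of these members, and the sources used here do not give the strand setting of the authors' counts. The shared part was 30.7% of the exon length of Cdkn1c (with Gm44732), 23.4% of Ccnd1 (with LTO1), 22.8% of Ube2c (with Tnnc2), 19.7% of Cdk4 (with Tspan31), 17.4% of Ccne2 (with Ints8), 12.5% of Ccna2 (with Exosc9) and 11.1% of Prc1 (with Rccd1). Values of these 7 genes are uncertain to that extent.

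Markers of the tagged cells moved with genotype too. In the icKO IPs 17 of 26 precursor markers fell and 2 rose (median log2 change -0.17), 14 of 14 pericyte markers fell, and 23 of 25 mature oligodendrocyte markers fell. Pericyte markers summed to 1216 and 1238 CPM in the icKO IPs, against 2195 and 2218 CPM in the control IPs. Of the precursor markers, Pdgfra had 2193 and 2188 CPM in the icKO IPs, against 2245 and 2240 CPM in the control IPs (log2 -0.03, edgeR adjusted p = 0.226). Cspg4, the NG2 gene, whose driver is also active in pericytes, had 934 and 972 CPM in the icKO IPs. Its control IPs had 894 and 907 CPM (log2 0.08, edgeR adjusted p = 0.00411). Olig2 was among those that fell (log2 -0.57, edgeR adjusted p = 1.56e-16). Markers listed for neural progenitors summed to 275 CPM in both icKO IPs, against 301 CPM in both control IPs. That list shares Tubb3 with the neuron list and is not a measure of dividing cells alone. Between the genotypes 2 of 14 were higher and 3 lower. In IP over input 10 of 14 were lower, where 34.2% of all genes were lower. Dcx (log2 1.28, edgeR adjusted p = 3.79e-07) and Sox11 (log2 0.55, edgeR adjusted p = 0.000149) were among those of this list that were higher in IP. They were not the largest: with DESeq2, 3 of the 14 were higher and 9 lower, with a highest log2 of 2.62. Of all 15936 genes, 5163 were higher and 5157 lower with DESeq2. Counts of other cell types were read against the 22.1% of all genes that were higher and the 25.2% lower. Astrocyte and neuron markers rose more often than that share: of 12 astrocyte markers 8 rose and none fell, and of 12 neuron markers 6 rose and 3 fell. Microglia and endothelial markers lay nearer to the shares: of 13 microglia markers 2 rose and 2 fell, and of 12 endothelial markers 1 rose and 4 fell. The part of these shifts in the cell cycle changes was not tested.

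**Figure D4:**
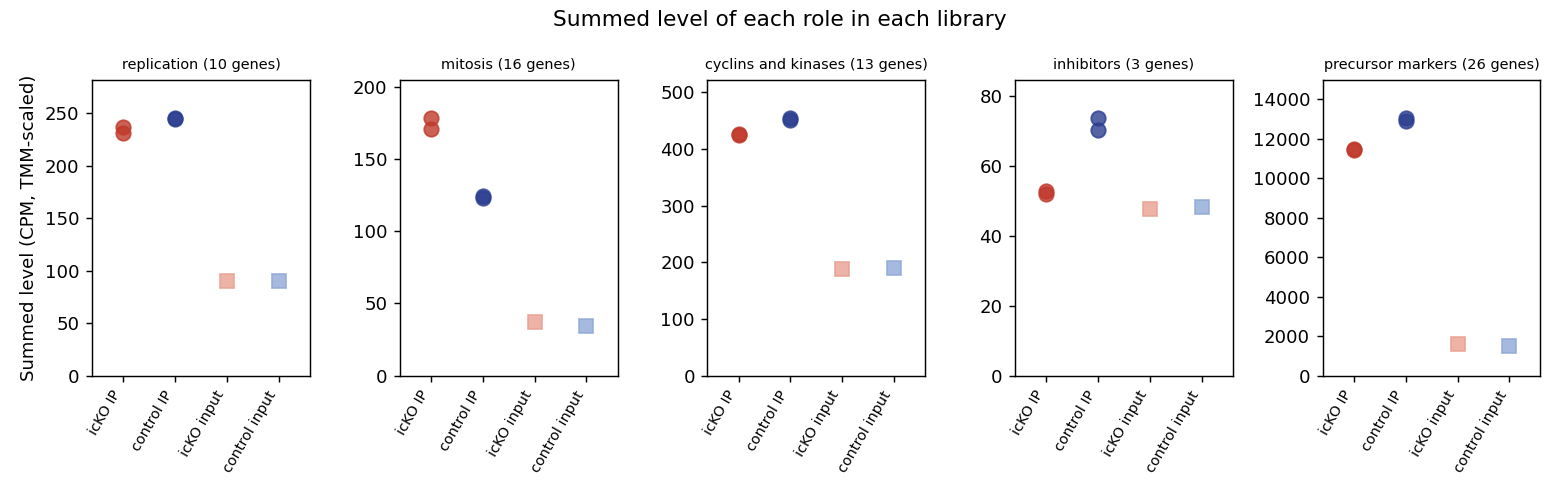
Summed level of each role and of the precursor markers in each of the 6 libraries (CPM, each panel with its own axis from 0), with 1 point per library. The mitosis sum is 178 and 170 CPM in the icKO IPs and 124 and 123 CPM in the control IPs, while the inhibitor sum is 53.0 and 51.9 CPM in the icKO IPs and 70.3 and 73.7 CPM in the control IPs.

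Reading the changes per precursor marker transcript moves all genes up alike, so that smaller falls and larger rises follow from the scaling itself. With the IP libraries scaled to the precursor markers, the median of all genes moved to log2 0.23, and 44.9% of genes tested were higher and 9.06% lower. On that scale 12 of 16 mitosis genes were higher and none lower (median 0.70), and 5 of 10 replication genes were higher and 1 lower (median 0.22, near the median of all genes). Pcna (log2 -0.19), Cdk4 (-0.18) and Cdkn1b (-0.25) were still lower. Ccnd1 turned to the other side of 0, with log2 0.12 (edgeR adjusted p = 0.00173), but this scaling moves all genes alike, and Ccnd1 lay below the median of all genes on both scales (log2 0.12 against 0.23 here, and -0.11 against 0.003 with TMM). Ccnd3 and Cdkn1c no longer passed.

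Longer transcripts tended to be higher in the icKO IPs across the whole data. Over 14492 genes the Spearman correlation of the log2 change with exon length was 0.23, a description across genes that share the same 4 libraries. Over the 42 members it was 0.13, over the 16 mitosis genes 0.14 and over the 10 replication genes 0.50. The 12 mitosis genes that rose had a median exon length of 5878 bases, against 3174 bases for the 4 that did not pass and 4457 bases over all genes. A trend on transcript length was then removed from each library, a setting chosen after the data had been seen. With it 11 of 16 mitosis genes still rose and none fell, where 18.6% of all genes were higher and 24.6% lower. Prc1 (edgeR adjusted p = 0.0602) and Cdkn1c (0.158) lost their calls, and Cdk6 gained a call as lower (log2 -0.67, edgeR adjusted p = 0.00757).

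**Figure D5:**
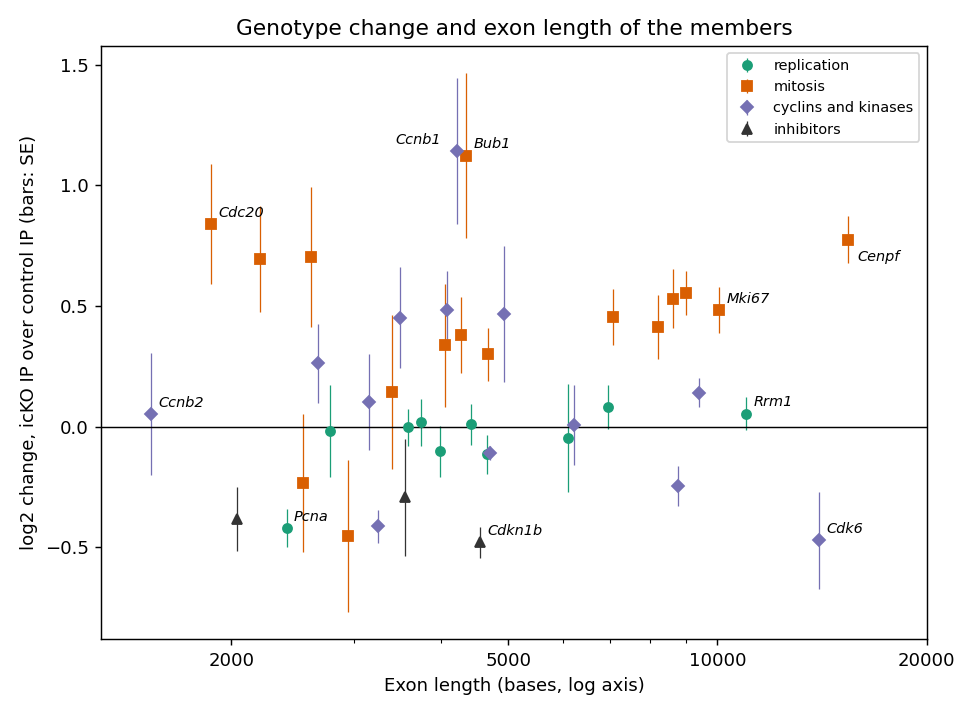
Log2 change of icKO IP over control IP plotted against exon length in bases (log axis) for the 42 members, coloured by role, with bars for the SE. The mitosis genes that rose had a median of 5878 bases and the 4 that did not pass 3174 bases, with Cenpf at the long end and Cdc20 at the short end both above 0 and the short Aurka and Aurkb below 0.

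Whole brain RNA was compared between genotypes from 1 input library each, with no test. Of the 37 members with at least 10 counts in each input, 1 was more than 1.5-fold higher in the icKO input and 3 more than 1.5-fold lower, where 5.23% of 14545 genes were past that fold in either direction (2.54% higher and 2.7% lower). The member above was Cenpf, with 68 counts in the icKO input against 38 in the control input (ratio 1.85, exact binomial 95% interval 1.26 to 2.90). Those below were Nusap1, with 10 against 28 counts (0.421, 0.164 to 0.804), Cdc20, with 11 against 26 (0.489, 0.200 to 0.940), and Cdk2, with 16 against 32 (0.559, 0.272 to 0.995). The intervals cover counting error only. Top2a, at a ratio of 1.49 (67 against 47 counts), lay just inside the threshold. Cdk1 had 11 counts in the icKO input against 3 in the control input (ratio 2.71, 1.03 to 21.7), and Ccnb1 13 against 3 (3.13, 1.26 to 25.1), too few for the count above. Most mitosis genes were below 5 CPM in the inputs, the exception being Racgap1 with 11.7 CPM in the icKO input and 12.0 CPM in the control input. Mki67 had 3.35 CPM in the icKO input and 2.50 CPM in the control input, Plk1 0.826 and 0.772 CPM, Birc5 0.778 and 0.818 CPM, Aurkb 0.438 and 0.409 CPM, and Bub1 0.243 and 0.182 CPM, in the same order. Replication genes were at 6.22 CPM in the icKO input and 4.77 CPM in the control input for Mcm2, 6.08 and 6.81 CPM for Mcm5, 1.80 and 1.91 CPM for Rrm2, and 1.12 and 1.64 CPM for Tyms. Of the G1 genes, Cdk4 had 16.4 CPM in the icKO input and 22.2 CPM in the control input, a ratio of 0.734 (0.636 to 0.843), Cdk6 1.26 and 0.954 CPM, Ccnd3 16.8 and 14.6 CPM, and E2f1 12.7 and 13.1 CPM. Of the inhibitors, Cdkn1a had 7.92 and 8.04 CPM, Cdkn1b 33.0 and 34.6 CPM and Cdkn1c 6.66 and 5.63 CPM. The Cdkn1c ratio was 1.17 (0.912 to 1.51), in the opposite direction to its fall in the icKO IPs. Ccna2 had 0.972 and 0.636 CPM. The mitosis genes summed to 36.9 CPM in the icKO input against 34.3 CPM in the control input. Racgap1 alone made up 11.7 and 12.0 CPM of these sums. The replication genes summed to 90.04 against 90.17 CPM.

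For 3 members the genotype change in IP differed from that in input (edgeR interaction over 4 groups, with the spread of the IP pairs taken for the unreplicated inputs): 2 were higher and 1 lower, against 9.67% and 13.9% of 15936 genes tested. Cdc20 had a difference of log2 1.97 (SE 0.62, edgeR adjusted p = 0.0205), since it was higher in the icKO IPs and lower in the icKO input. Nusap1 had log2 1.71 (SE 0.64, edgeR adjusted p = 0.05, just under the threshold before rounding). Cdkn1b had log2 -0.42 (SE 0.12, edgeR adjusted p = 0.0117), with 33.0 CPM in the icKO input against 34.6 CPM in the control input. The Cdc20 and Nusap1 values rest on the 10 to 28 input counts given above. The remaining members did not pass, and some had a log2 change of similar size in IP and input. These included Cdk4 (-0.41 in IP and -0.45 in input), Top2a (0.55 and 0.58), Cenpf (0.78 and 0.89) and Mki67 (0.48 and 0.40). Others had little change in input or the opposite one, such as Pcna (-0.42 and -0.06), Plk1 (0.69 and 0.08), Racgap1 (0.45 and -0.05) and Bub1b (0.38 and -0.42).

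Further cell cycle genes outside the 42 members were counted in the same way. The shares over all genes tested were 22.1% higher and 25.2% lower between genotypes, and 34.2% each way in IP over input, and several of the counts between genotypes lie near or below them. Of 49 further mitosis genes tested, 13 rose in the icKO IPs and 1 fell (median log2 change 0.30). Among those with a mean of at least 1 CPM, the largest rises were those of Kif2c, a motor that takes microtubules apart at the centromere (log2 1.11, SE 0.31, edgeR adjusted p = 0.00344), and Cdca2 (log2 1.01, SE 0.25, adjusted p = 0.00125), and Hmgb2, a chromatin protein gene, fell (log2 -0.23). Of 39 further replication genes, 4 rose and 3 fell (median -0.07). Among them were the replication factor Mcm10 (log2 0.59) and the chromatin remodeller Hells (0.54) above. Rpa2 (-0.41), of the single-strand binding complex, and Dut (-0.37), which removes dUTP, were below. Of 33 further regulators, 4 rose and 7 fell (median -0.02), with Skp2, part of the ligase that marks p27 for destruction, above (log2 0.51, SE 0.15, edgeR adjusted p = 0.00522) and with cyclin F (Ccnf, 0.47), and E2f8 (-0.50) and E2f5 (-0.47) below. Of the INK4 inhibitors of Cdk4 and Cdk6, 3 of 4 could be tested, and Cdkn2d fell (log2 -0.64, SE 0.14, edgeR adjusted p = 0.00034) while the others did not pass. In IP over input, 39 of 50 further mitosis genes were higher and 2 lower (median 1.64), as were 26 of 39 replication genes with 2 lower (median 0.99) and 19 of 33 regulators with 8 lower (median 0.41). Among the genes that passed with a mean of at least 1 CPM, Uhrf1 (log2 3.39), Cdc6 (2.93), Ckap2 (3.72), Ttk (3.66), E2f8 (3.56), Rbl1 (2.36) and Cdkn2c (1.70) were furthest above input in their lists, and Dut (-0.87), Slbp (-0.59), Pttg1 (-0.51), Cit (-0.42), Ccng1 (-1.01), Wee1 (-0.9996) and Cdkn2d (-0.99) were furthest below.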

How the data were processed

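Gene expression was measured by RNA-seq in 6 libraries, made per the labels with a Takara stranded total RNA kit for low input. The authors deposited raw read counts per gene symbol, without normalization. Per the submitters' processing notes, Trimmomatic 0.39 was used for trimming and STAR 2.7.10b for alignment, with build mm10. The sources used here do not give the counter, its annotation, its strand setting or any use of molecular identifiers, so overlapping genes and genes with close copies elsewhere in the genome are uncertain. Groups came from the genotype labels and titles, and for icKO IP replicate 1 the title has cKO where its genotype label has AnkG icKO. Of 24421 genes, 10 had no value in the inputs and were left out.

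The members, the other lists and the tests were chosen with earlier results of these data known, so no count over a list is independent support. Counts were scaled with TMM and tested over all genes with edgeR 4.0.16 under R 4.3.3 by its two-sided quasi-likelihood test, after filterByExpr, with Benjamini-Hochberg adjustment and a threshold of 0.05. The IP comparison used the 4 IP libraries alone (common biological coefficient of variation 3.01%, 2 residual and 29.7 prior degrees of freedom), IP over input used all 6 with a genotype term, and the interaction used 4 groups. Changes are log2 of icKO over control or of IP over input. Inputs had 1 library each and were given as ratios of CPM of the library totals with a prior count of 2. Library totals were 19569611 and 18968806 counts for icKO IP, 20754765 and 23930812 for control IP, 19919520 for icKO input and 21129973 for control input. PCR copies are not independent molecules, so intervals cover counting error only. Exon lengths came from GENCODE M21 and promoters from RefSeq GRCm38.p6. Members named in full were a set picked by role, plus the largest change in each direction per role, and for other lists the 2 largest rises and falls with a mean of at least 1 CPM. Alternatives were DESeq2 1.42.0, other scalings and filters, a replicate block and leaving out each library, and scripts were tested on simulated data.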

Additional observations from a re-analysis of the deposited data

Results flagged for a closer look

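For 3 members the change between icKO and control differed between IP and input by the interaction test (edgeR adjusted p under 0.05). Of all 15936 genes tested, 23.6% passed that test in either direction, a larger share than 3 of the 42 members. Cdc20 had a difference of log2 1.97: its level over input was log2 2.90 in the icKO libraries and 0.93 in the control libraries. Nusap1 had a difference of log2 1.71, with 2.72 in the icKO libraries and 1.01 in the control libraries. Cdkn1b had a difference of log2 -0.42, with 0.28 in the icKO libraries and 0.70 in the control libraries. DESeq2 gave no adjusted p for Cdc20 and Nusap1, and Cdkn1b lost its call with DESeq2. Nusap1 lost its call under library totals, under the transcript length setting, and without control IP replicate 1, control IP replicate 2 or icKO IP replicate 1. With 1 input library per genotype, the input side of each difference has no replicate check.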

How the results depend on the processing

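In icKO IP over control IP, 8 members were higher with DESeq2 and 24 with scaling to the precursor markers, against 14 as reported, and 3 were lower with that scaling, against 6. Leaving out 1 library gave 9 to 12 higher, with 9 when control IP replicate 2 or icKO IP replicate 1 was the one left out, and 5 to 7 lower. In IP over input, 20 members were higher with a minimum of 5 CPM, which leaves fewer genes tested, against 36, and leaving out 1 library gave 36 higher and 4 lower each time. In the interaction, 2 members were higher as reported, 0 with DESeq2 (2 at an unadjusted p under 0.05, and 25 members with no adjusted p), 0 at 5 CPM, and 1 with library totals or the transcript length setting. There, 1 was lower as reported, 0 with DESeq2, 2 with RLE scaling, 2 with no filter, 2 with the length setting, 3 with the replicate block and 4 with library totals. Leaving out 1 library gave 1 to 3 higher and 1 to 3 lower. In the inputs, 1 member was higher as reported, 2 with TMM factors, 2 with a prior count of 0.5 and 8 at a lower fold threshold, where 7 rather than 3 were lower.

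The labels state no pairing, and same-numbered IP libraries did not deviate together (correlation -0.0031). With the replicate block, 15 members were higher and 7 lower between the IPs, 36 and 4 in IP over input, and 2 and 3 in the interaction. Between the IPs, 3401 of all 15069 genes tested were higher and 3876 lower with that block.

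Values whose sign turned belonged to 14 members, of which Ccnd1 had been called as reported. Under library totals these were Mcm2 (log2 -0.0065), Mcm3 (-0.069), Mcm7 (-0.077), Rrm1 (-0.032), Cdk2 (-0.081) and Ccnb2 (-0.035), with no filter Mcm7 (-0.0073) and Cdk2 (-0.012), and under the transcript length setting Mcm4 (0.044), Rrm1 (-0.096), Rrm2 (0.076) and Cdk2 (-0.055). Mcm4 also turned with DESeq2 (0.0015), RLE scaling (0.00086) and a minimum of 5 CPM (0.027). Under precursor scaling Mcm4 (0.23), Mcm5 (0.13), Mcm6 (0.12), Rrm2 (0.21), Tyms (0.19) and Ccnd1 (0.12) turned. Without 1 library in turn, Mcm3 ran from -0.036 to 0.068, Mcm4 from -0.055 to 0.045, Mcm7 from -0.060 to 0.081, Rrm2 from -0.20 to 0.16, Tyms from -0.26 to 0.14, Birc5 from -0.079 to 0.33, Cdk2 from -0.12 to 0.11, Ccnb2 from -0.056 to 0.15 and Cdkn1a from -0.74 to 0.037. The cause of these shifts was not tested. Depth limits the members with few counts: Bub1, Aurkb, Ube2c, Cdk1 and Ccnb1 had fewer than 10 counts in an input.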
